A study of Mus musculus with 4 samples.

Results

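The genes described are those of the Ret-Gdnf pathway, which drives the ureteric bud out of the nephric duct: Ret, Gfra1, Gdnf, Wnt11, Pax2, Lhx1, Emx2, Etv4, Etv5 and Spry1. They were taken by name as every probe set of the array annotated to 1 of these 10 symbols and to no other. This gave 16 probe sets of 9 genes, of 18194 genes named on the array; the expression of Pax2 was not analysed here. Expression was measured on Affymetrix MOE430 arrays in 3 ureter samples and in 1 reference sample. The ureter samples were whole ureters of male FVB/N mice at postnatal day 1 (Theiler stage 27) that carried the SMGA/EGFP transgene, and they were not pooled. The reference was a pool of whole FVB/N mice of both sexes at the same age without the transgene. Tissue, transgene, sex and pooling therefore differ together and cannot be told apart. All 4 samples went through 2 rounds of amplification, and the labels do not tie each ureter sample to an animal of its own. The p-values thus cover the scatter among these arrays, part of which may be technical. Ureters are numbered 1 to 3 by name only.

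In the embryo, mesenchyme beside the nephric duct secretes Gdnf, which binds the co-receptor Gfra1 and activates the receptor tyrosine kinase Ret on the duct. The duct then buds towards the mesenchyme, and the bud's stalk becomes the ureter while its tips branch into the kidney. Ret signalling at the tips switches on the ETS factor genes Etv4 and Etv5 and the ligand gene Wnt11, and Spry1 holds the signal in check. Pax2, Lhx1 and Emx2 encode transcription factors of the duct and bud. Ret and Gfra1 are also genes of enteric and autonomic neurons, which the whole-mouse pool holds.

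Values below are quantile-normalized intensities in arbitrary units, so they can be set against each other between arrays for 1 probe set but not between probe sets. The background level of an array was the highest intensity among 27 probe sets for Bacillus transcripts, and it was 89.2, 179.6 and 126.8 in ureters 1, 2 and 3 and 120.3 in the reference after normalization. Differences are log2 ureter minus reference of values with an offset of 12.23, followed by ± and their standard error (SE), which limma estimated over all probe sets. Most markers of ureter tissue read higher in the ureters, on lists chosen with earlier results of these data known. Limma (adjusted p below 0.05) called 7 of 10 urothelial genes and 7 of 7 genes of ureteric mesenchyme and smooth muscle higher. Of all genes tested, 3.04% were called higher in the ureters than in the reference. Upk3a of the urothelial plaque read 20816 ± 6687 (SD, n = 3) against 350.2, and the mesenchymal factor gene Tbx18 29127 ± 4491 (SD, n = 3) against 751. Krt5, on the same urothelial list, went the other way without passing. It read 4699, 2612 and 4120 in ureters 1, 2 and 3 against 12408, a difference of -1.74.

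No bud pathway gene passed limma's adjusted p of 0.05 between ureter and whole newborn. Of the 16 probe sets, 11 of 7 genes were bright enough to be tested, and 0 were called higher and 0 lower. Of all 27022 probe sets tested 6.32% were called, 2.76% higher and 3.56% lower. At an unadjusted p below 0.05 the count was also 0, against 24.2% of all probe sets. The median difference was 0.03 over the 11 probe sets, and 0.11 over all probe sets tested. After normalization the 3 ureters lay on 1 side of the reference for 3 of the 11, 1 each of Gfra1, Emx2 and Etv5. Among all probe sets the share was 68.5%. By gene the count was 3 of 7, against 70.6% of all genes. The values also differed between the ureters, and several members were low in ureter 1 and higher in ureters 2 and 3. The median SD of the 11 probe sets over the ureters, 0.52, was below the 75th percentile of all probe sets tested, 0.61.

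**Figure D1:**
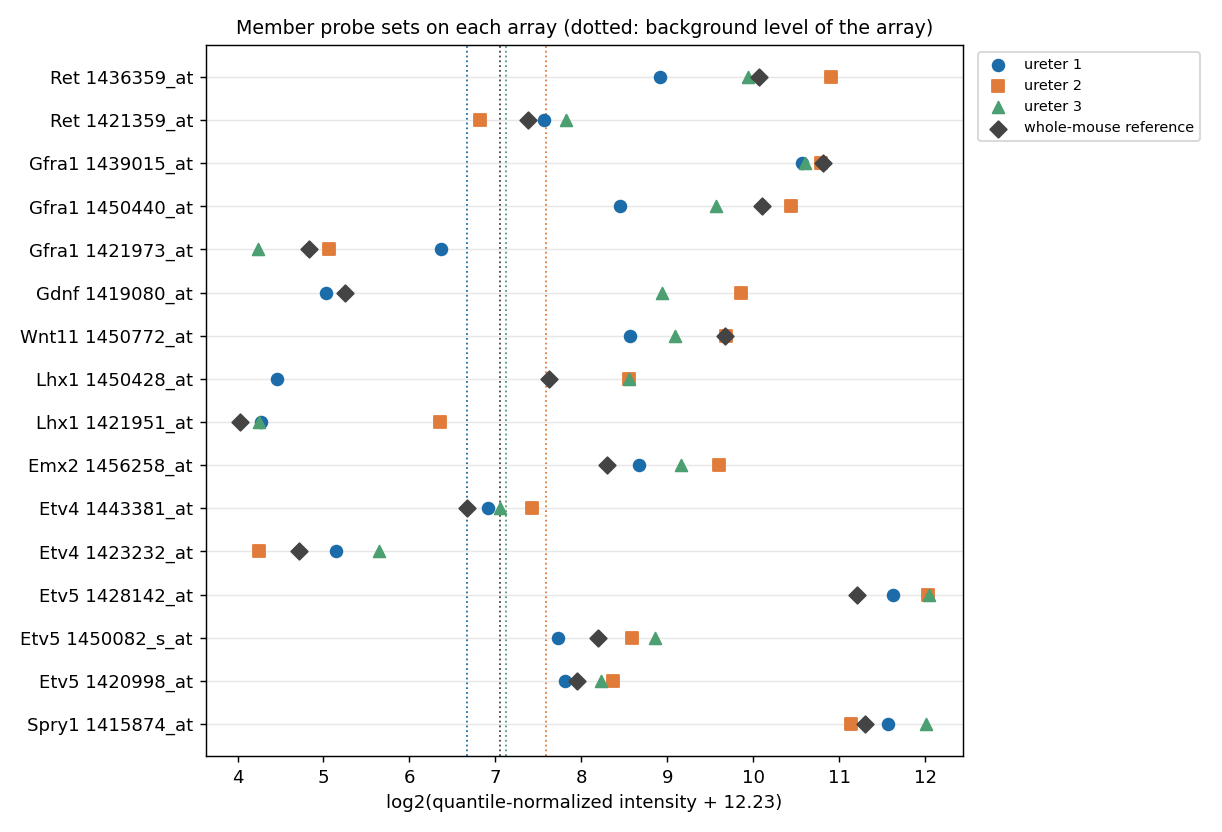
Quantile-normalized intensity (x axis, log2 after adding the offset of 12.23) of the 16 member probe sets (y axis) in ureters 1 to 3 and the whole-mouse reference. Each point is 1 array and each dotted line the background level of the array of that colour. Gdnf and the brighter Lhx1 probe set lie below background in ureter 1 and above it in ureters 2 and 3, whereas the Etv5 probe set 1428142_at and Spry1 are far above background on every array.

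The receptor gene Ret was read by 2 probe sets. The brighter, 1436359_at, read 469.9 in ureter 1, 1912 in ureter 2 and 967 in ureter 3, and 1064 in the reference. Ureter 2 thus lay above the reference and ureter 1 well below it, a 3.99-fold range on the offset scale between samples of the same tissue. The mean difference was -0.15 ± 0.76 (limma adjusted p = 0.931). Its 95% confidence interval, not adjusted for the number of probe sets, ran from -2.01 to 1.70, so differences within it are not excluded. The dimmer probe set, 1421359_at, read 177.8, 101.1, 213.6 and 153.8 in the same order, with ureter 2 lowest and not above background. Its difference was 0.03 ± 0.71 (limma adjusted p = 0.986), and its order depends on the scaling, since as deposited ureter 1 was the lowest (119.6, against 123.2 and 177 in ureters 2 and 3).

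Gfra1, the co-receptor that presents Gdnf to Ret, had 3 probe sets that behaved differently between the ureters. Probe set 1439015_at read 1501 in ureter 1, 1762 in ureter 2, 1541 in ureter 3 and 1783 in the reference. These values are close together: the SD over the ureters, 0.12 on the log2 scale, was at the 9.82 percentile of all probe sets tested, and the difference was -0.16 ± 0.37 (limma adjusted p = 0.844; interval -1.06 to 0.74). Probe set 1450440_at of the same gene read 338, 1374, 747 and 1082, which spreads the ureters 3.96-fold, with an SD at the 90.04 percentile. In that probe set ureter 1 was lowest and ureter 2 highest, as for the brighter Ret probe set, and the difference was -0.61 ± 0.77 (limma adjusted p = 0.686). The remaining probe set, 1421973_at, was not above background on any array and was not tested.

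Gdnf, the ligand that the mesenchyme secretes, had the widest spread between the ureters of the members. Its single probe set, 1419080_at, read 20.5 in ureter 1, 912 in ureter 2 and 480.1 in ureter 3, and 25.7 in the reference; as deposited these were 12.6, 933, 430.7 and 43.2. It was above background in ureters 2 and 3 only, so the groups overlap, because ureter 1 and the reference were both at background. The probe set missed the filter on dim probe sets and has no test in the fit of all 4 arrays, where its difference was 2.70. The mean of the 3 ureters was at least 1.86-fold over the reference's background level, with 2 of the 3 above their own. Over ureters 2 and 3 alone the mean was at least 5.09-fold over that level. Those are the ureters in which the probe set was high, so the larger fold follows from leaving out ureter 1. No test is given for this fold, because without ureter 1 the probe set cleared the filter only through the ureters in which it was high.

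Promoter windows are shown for Gdnf, Gfra1 and Lhx1, because each had a probe set that was over 2-fold lower in ureter 1 than in both other ureters. Each is the 250 bases before the annotated start in RefSeq's table for build GRCm38.p6, read 5′ to 3′ on the gene's strand; 8 members had a window there, 13 windows in all, 3 of them of Pax2. Ret, whose brighter probe set met the same rule, had no window there. Gdnf's first start has chr15:7809798-7810047 (plus strand), Gfra1 has chr19:58455399-58455648 (minus strand) and Lhx1 has chr11:84525535-84525784 (minus strand). Capitals mark matches, on either strand, to CCGGAA (the core that ETS factors such as Etv4 and Etv5 bind), GTCACGC (a half-site of the Pax2 group) or GTTAAT (a half-site of the Hnf1 factors).
Gdnf: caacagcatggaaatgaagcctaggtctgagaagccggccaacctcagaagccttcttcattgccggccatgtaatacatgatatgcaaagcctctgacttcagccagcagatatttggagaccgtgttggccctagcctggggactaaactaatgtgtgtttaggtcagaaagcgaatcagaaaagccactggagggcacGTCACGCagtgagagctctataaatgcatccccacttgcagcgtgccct
Gfra1: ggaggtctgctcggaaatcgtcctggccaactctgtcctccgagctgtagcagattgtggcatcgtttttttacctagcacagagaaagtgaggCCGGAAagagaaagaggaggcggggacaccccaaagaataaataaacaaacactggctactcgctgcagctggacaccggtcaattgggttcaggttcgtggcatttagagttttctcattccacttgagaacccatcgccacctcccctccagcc
Lhx1: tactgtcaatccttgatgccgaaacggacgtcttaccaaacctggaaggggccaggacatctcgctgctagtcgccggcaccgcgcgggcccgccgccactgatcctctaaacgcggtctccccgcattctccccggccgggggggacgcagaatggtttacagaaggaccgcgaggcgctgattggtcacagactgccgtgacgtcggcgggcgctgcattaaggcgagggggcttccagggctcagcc
The Gdnf window held GTCACGC with its first base 49 bases before the start, the Gfra1 window held CCGGAA 156 bases before it, and the Lhx1 window held none of the 3 strings. No 2 matches overlapped. Among 32851 windows of the same length, 12.03% held CCGGAA, 1.78% held GTCACGC and 6.43% held GTTAAT, and among the members' 13 windows 3 (1 each of Gfra1, Wnt11 and Pax2), 1 and 0 did. A match is a run of letters and not a measured site.

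Wnt11, a ligand gene of the bud tip that Ret signalling induces, read 366 in ureter 1, 807 in ureter 2, 532 in ureter 3 and 803 in the reference (1450772_at). All 4 arrays were above background. After normalization ureter 2 lay at the reference level and the other ureters below it, so the groups meet. As deposited, every ureter was below the reference (273.3, 834 and 483.3 against 950.5), so that meeting rests on the scaling. The difference was -0.56 ± 0.56 (limma adjusted p = 0.598, interval -1.92 to 0.80).

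Lhx1, a LIM homeobox gene of the nephric duct and of early nephrons, showed nearly the same pattern as Gdnf among the ureters. Its brighter probe set, 1450428_at, read 9.68 in ureter 1, 363 in ureter 2, 362 in ureter 3 and 185.6 in the reference. Ureter 1 was below background while ureters 2 and 3 lay close together above the reference. Its SD over the ureters, 2.37 on the log2 scale, was at the 99.6 percentile of all probe sets tested. The difference of -0.44 ± 1.68 (limma adjusted p = 0.906) had an interval from -4.53 to 3.65, and without ureter 1 it turned to 0.88 ± 0.58 (limma adjusted p = 0.423, within a range of 0.423 to 0.961 over 7 alternatives). The other probe set, 1421951_at, was at background on every array and was not tested.

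Emx2, a homeobox gene that the bud needs to keep growing, read 395 in ureter 1, 766 in ureter 2, 559 in ureter 3 and 303 in the reference (1456258_at). After normalization every ureter lay above the reference, by 0.37, 1.30 and 0.86 on the log2 scale. As deposited, ureter 1 was below it (300.4 against 433.9), so that separation rests on the scaling. The difference was 0.84 ± 0.54 (limma adjusted p = 0.399; interval -0.46 to 2.15), and it was positive in all 10 alternatives, from 0.19 with intensities as deposited to 1.02 without ureter 1.

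Etv5, an ETS factor gene that Ret signalling switches on, was bright and fairly even between the ureters at 1 of its 3 probe sets. The brightest, 1428142_at, read 3147, 4164 and 4203 in ureters 1, 2 and 3 and 2357 in the reference, so every ureter was higher than the reference, as it also was in the deposited values. The difference was 0.69 ± 0.35 and did not pass (limma adjusted p = 0.296; interval -0.17 to 1.54); over 10 alternatives it ran from 0.61 to 1.44 with adjusted p from 0.210 to 0.598. Both dimmer Etv5 probe sets had ureter 1 below the reference and ureters 2 and 3 above it, with differences of 0.20 ± 0.63 (1450082_s_at) and 0.19 ± 0.56 (1420998_at), and both turned negative as deposited (-0.50 and -0.54). The s in the first name marks a probe set whose probes are shared by several transcripts.

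Etv4, the partner of Etv5 in the bud tip, was near background and not tested. Its brighter probe set, 1443381_at, read 108, 159.9 and 120.6 in the ureters and 89.8 in the reference, which is above background in ureter 1 only. The dimmer one was not above background on any array. Spry1, the feedback inhibitor of Ret signalling, was well above background on every array (1415874_at), at 3016, 2238, 4124 and 2513. Ureter 3 was highest and ureter 2 just below the reference, an order unlike that of Ret or Gdnf, and the difference was 0.27 ± 0.44 (limma adjusted p = 0.762; interval -0.79 to 1.33).

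**Figure D2:**
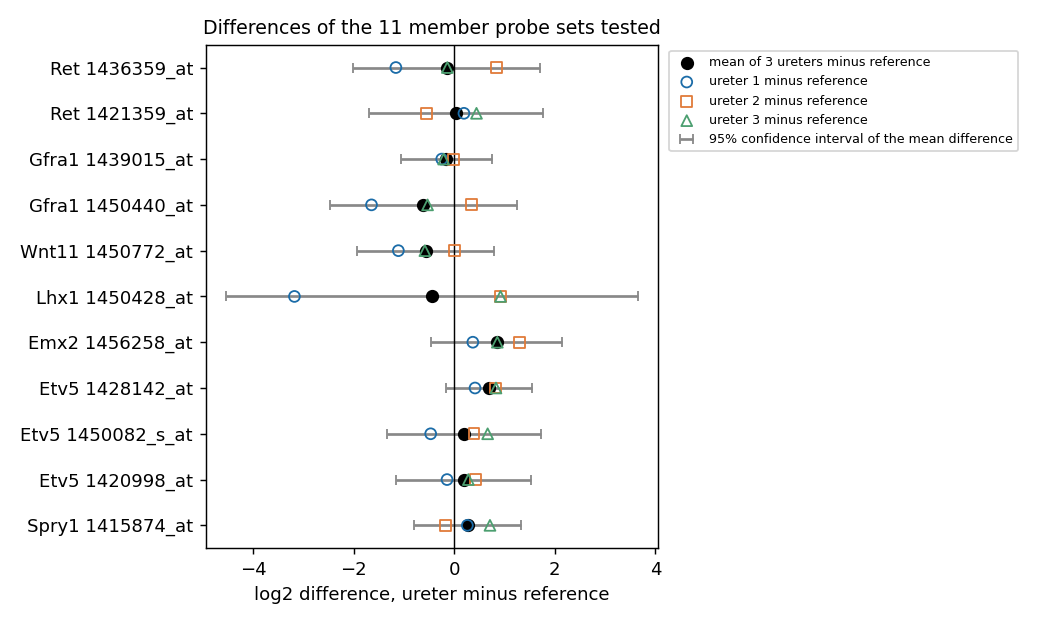
Log2 difference, ureter minus whole-mouse reference (x axis), of the 11 member probe sets tested (y axis). Open symbols are the 3 ureters, black points their mean and bars the 95% confidence interval of the limma fit; every interval spans 0, from the narrow Etv5 1428142_at (-0.17 to 1.54) to the wide Lhx1 1450428_at (-4.53 to 3.65).

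Ureter 1 had the lowest value of the 3 ureters in 9 of the 11 member probe sets tested, against 33.0% of all probe sets, and in 7 of them ureter 2 was also the highest, against 19.5%. The count was chosen after the values were seen and is given with no test. With intensities as deposited it was 10 of 11 (42.8% of all), and with arrays centred on the median 7 of 11 (19.7% of all). The exceptions after quantile normalization were the dimmer Ret probe set and Spry1. The median SD over the ureters was 0.52 for the 11 probe sets and 0.37 for all probe sets tested, and 8 of the 11 were above the latter. The 75th percentile of all probe sets tested was 0.61, above the median of the 11.

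Markers of the kidney tubule differed between the ureters in the same direction. All 7 tested of 9 listed had their lowest value in ureter 1, against 30.3% of all genes, and their summed intensity was 776 in ureter 1, 10585 in ureter 2, 5204 in ureter 3 and 7365 in the reference. Slc12a1, the salt transporter gene of the loop of Henle, read 47.3, 4202 and 705 in the ureters and 823 in the reference, and Lrp2, the megalin gene of the proximal tubule, 145.8, 2218, 1028 and 1178. None of the 7 was at 0 on any array, and 4 were above background in ureter 1 and 7 in each of the other ureters. Nphs1, a podocyte gene of the same list, missed the filter on dim probe sets.

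Collecting duct markers, which share their bud origin with the ureter, were mixed. Of 7 tested, 4 were lowest in ureter 1. Compared with the reference, limma called 2 higher, against 3.04% of all genes. They were Scnn1g, a sodium channel subunit gene (at least 13.0-fold, limma adjusted p = 0.0137), and Aqp3, a water channel gene (1.68 ± 0.35, limma adjusted p = 0.0454). Fxyd4 (-0.20) and Atp6v1b1 (at least 2.48-fold) of the same list were lower on average, and neither passed. Atp6v1b1 was not above background in any ureter. The Aqp3 call was lost in 5 of 10 alternatives, with adjusted p from 0.0240 to 0.178, and the Scnn1g call in 1, without ureter 3 (0.0729, from a range that began at 0.00757). Calb1, the calbindin gene of the distal nephron and collecting system, read 359, 11167 and 8378 in the ureters and 2357 in the reference. The summed intensity of the 7 was 20149, 24188 and 26999.8 in ureters 1, 2 and 3 against 7877. In ureter 1 most of that sum was Aqp3, which was highest there (16419, 9720 and 13314 against 4017). Of 3 nephron progenitor markers 1 was lowest in ureter 1, with sums of 1446, 1786 and 1417 against 3466; Meox1 read 556, 684 and 486 against 812, and Crym 643, 751 and 591 against 2380.3 (-1.83 ± 0.41; limma adjusted p = 0.0561).

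Urothelial markers ran the other way, with sums of 249144, 151114 and 181903 in ureters 1, 2 and 3 against 45775 in the reference. All 10 were highest in ureter 1, against 5479 of all 13718 genes tested. As deposited, 1 of the 10 was instead lowest there, whereas the tubule markers were lowest in ureter 1 in 7 of 7 under all 3 scalings. Upk1b read 57829, 37242 and 43242 against 894, Foxa1 26724, 13415 and 17853 against 1547, and Krt18 45941, 36256 and 40462 against 8908. Mesenchymal and smooth muscle markers summed to 99677, 111389 and 117090.0 against 18868. Of the 7, 5 were lowest in ureter 1, against 30.3% of all genes. Among them the smooth muscle regulator gene Myocd read 2604, 13103 and 5471 against 304, Myh11 23210.2, 34225 and 33082 against 3354, Cnn1 3259, 4287 and 4755 against 290.2, and Actg2 27856, 27952 and 33812 against 12436. The other 2 of the list were highest in ureter 1, Tbx18 at 32988, 24198 and 30195 and Tbx2 at 5076, 2322 and 3827. Of 8 markers of enteric and autonomic neurons, which can carry Ret, 2 were lowest in ureter 1, against 30.3% of all genes. Limma called 2 of the 8 lower than in the reference, against 4.85% of all genes. They were Tubb3 (at least 23.2-fold, limma adjusted p = 0.0219) and Stmn2 (-2.37 ± 0.40, limma adjusted p = 0.0270). Without ureter 3 both calls were lost (0.0541 and 0.116). The Tubb3 call was also lost with an offset of 1, and the Stmn2 call with median-centred arrays and without an intensity trend. Limma's adjusted p ran from 0.00528 to 0.0590 over 9 alternatives for Tubb3 and from 0.0170 to 0.172 over 10 for Stmn2. Uchl1 read 1516, 1127 and 1348 against 866. The neuron markers' sums were 3953, 4237 and 3998 against 15508. Of 3 tested markers of Schwann cells and glia limma called 0, with 0 below an unadjusted p of 0.05. Their sums of 13360.1, 7681 and 7401 against 9560 are mostly Erbb3 (12331, 6967 and 6362 against 8597), whereas S100b read 684, 338 and 722 against 649. Any such sum is carried by its brightest probe sets. In whole-tissue RNA a smaller share of a cell type and less RNA per cell cannot be told apart, and the part that any of these cells has in the members' values was not tested.

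**Figure D3:**
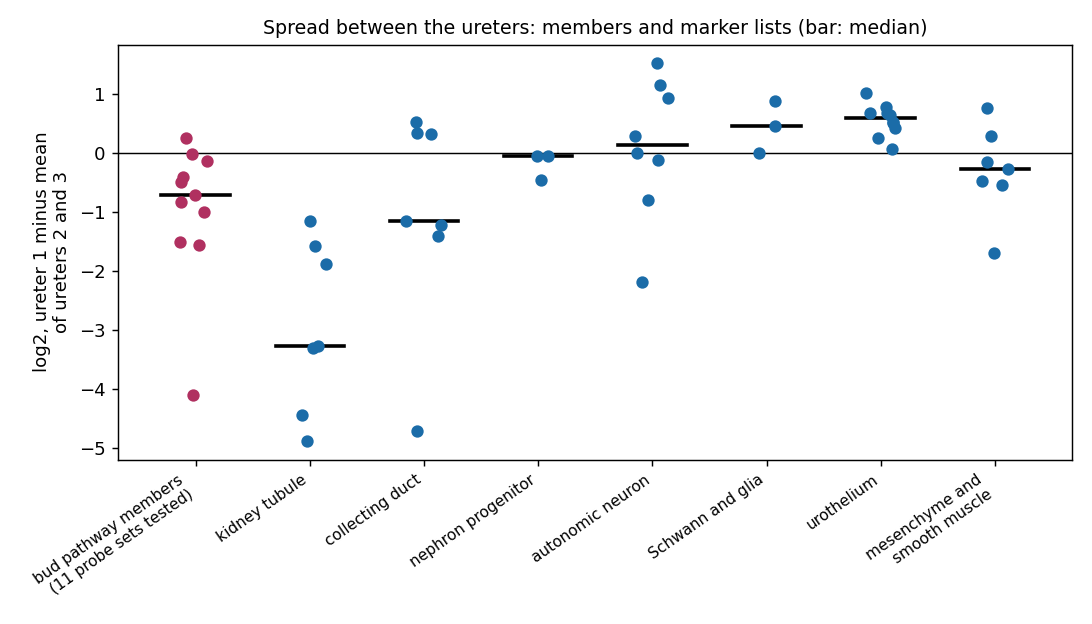
Log2 value in ureter 1 minus the mean of ureters 2 and 3 (y axis) for the 11 member probe sets tested and for the tested genes of 7 marker lists (x axis). Each point is a probe set, spread sideways for legibility, and bars are medians: the kidney tubule markers have a median of -3.27 and the urothelial markers 0.59.

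Other genes that act with the pathway were read by role, each gene by its brightest probe set. Among 4 tested of 6 other ligands and co-receptors of the Gdnf family 1 was higher, against 3.04% of all 13718 genes called higher, and the list's median difference was 1.12 against 0.10 for all genes. It was Gfra2, the co-receptor that binds neurturin, at 6389, 10399 and 8552 in the ureters and 2491 in the reference. All ureters were above the reference, by 1.73 ± 0.36 on average (limma adjusted p = 0.0455). An equally directed probe set gave 1.66 (adjusted p = 0.0397) and a dimmer one 0.13 (adjusted p = 0.904); the x in the names of the called pair, 1433716_x_at and 1459847_x_at, marks probes that can match other transcripts. The call was lost in 5 of 10 alternatives, with adjusted p from 0.0277 to 0.183. Nrtn, the neurturin gene, differed by 0.04 and Gfra4 by 1.08, neither passing. Of the 4 genes 2 were below limma's unadjusted p of 0.05, against 26.4% of all genes.

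The adaptors and enzymes that relay Ret signals to the Ras and PI3-kinase pathways went both ways without a call. Of 11 tested of 14 listed, 0 passed limma's adjusted p in either direction, against 7.89% of all genes, 0 were below an unadjusted p of 0.05, and their differences ran from -0.83 for the adaptor gene Dok4 to 0.75 for Pik3r1, a PI3-kinase subunit gene. Their median difference was 0.08. Ptpn11, the phosphatase Shp2 gene, differed by 0.05 ± 0.20 and Plcg1, a phospholipase gene, by -0.03 ± 0.42.

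Calls were also made among genes that promote or place Gdnf expression and bud outgrowth. Of 15 tested of 20 listed, 3 were higher, against 3.04% of all genes, and 0 lower, with a median difference of 1.02. In either direction 7 of the 15 were below limma's unadjusted p of 0.05, against 26.4% of all genes. Wt1, a zinc finger factor gene of kidney mesenchyme and of the serosal lining, read 1205, 1732 and 1660.1 in the ureters and 212 in the reference, a difference of 2.77 ± 0.44 (limma adjusted p = 0.0231). Itga8, whose integrin receives the bud's signal to make Gdnf, read 7659, 10334 and 9368 against 2487 (1.86 ± 0.30; limma adjusted p = 0.0249). Slit2, the guidance ligand that keeps the Gdnf domain from spreading forward, read 9452, 9357 and 8742 against 2671 (1.78 ± 0.27; limma adjusted p = 0.0211). Its dimmer probe sets did not pass, at 0.22 (adjusted p = 0.807) and 2.23 (adjusted p = 0.132), nor did the other one of Itga8, at 3.40 (adjusted p = 0.142). In each of the 3 called genes all ureters stood above the reference at the brightest probe set. Of all genes 70.6% had every ureter on 1 side of it. Six2, a factor gene of nephron progenitors, differed by 0.17 and Gdf11, a ligand gene that turns on Gdnf, by 0.18, neither passing.

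Among 8 tested of 11 listed genes of the duct and bud epithelium 1 was higher, against 3.04% of all genes, and the median difference was 0.70. Below limma's unadjusted p of 0.05 there was 1 of the 8, against 26.4% of all genes. Gata3, the duct factor gene that keeps Ret expressed, read 11012, 9534 and 8236 against 2360, a difference of 2.01 ± 0.30 (limma adjusted p = 0.0206). Wnt9b, a ligand gene of the bud stalk, read 38.0, 435 and 207 in the ureters and 199.6 in the reference, so ureter 1 was again the lowest, and the difference was -0.32 ± 1.22. Ctnnb1, the beta-catenin gene, differed by 0.07 at its brightest probe set.

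Of 5 tested of 6 listed genes that Ret signalling induces in the bud tip, 1 was lower, against 4.85% of all genes called lower. In either direction 4 of the 5 were below limma's unadjusted p of 0.05, against 26.4% of all genes. The median difference was 0.43, with Mmp14 at 1.57 and Cxcr4 at -2.01. The gene called lower was Myb, a proliferation factor gene also known from blood precursors. It read 346, 566 and 462 in the ureters and 6803 in the reference (-3.88 ± 0.46, limma adjusted p = 0.0129). The x in the name of this probe set, 1421317_x_at, marks probes that can match other transcripts. The dimmer Myb probe sets did not pass, at -2.43 (limma adjusted p = 0.0641) and -3.44 (limma adjusted p = 0.0505). Met, the receptor gene for hepatocyte growth factor, differed by 0.43 ± 0.30 and Ccnd1, the cyclin D1 gene, by 0.67 ± 0.20, neither passing.

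Inhibitors and modulators of the signal gave 0 calls by limma among 9 tested of 10 listed, against 7.89% of all genes, with 2 below an unadjusted p of 0.05, against 26.4% of all genes, and a median difference of 0.22. Spry4, a relative of Spry1, differed by 0.22 ± 0.54 at its brightest probe set and by 1.69 and -0.64 at the others, none passing, and Spred1, another inhibitor of the Ras pathway, by 0.19 ± 0.35 at its brightest. Leaving out ureter 3 ended every call among the pathway genes, with adjusted p of 0.183 for Gfra2, 0.113 for Wt1, 0.128 for Itga8, 0.108 for Slit2, 0.0861 for Gata3 and 0.0606 for Myb, while all 6 kept their direction in all 10 alternatives. Over those alternatives adjusted p began at 0.0277, 0.0147, 0.0181, 0.0154, 0.0142 and 0.00762 in the same order, and for these 6 genes its highest value was the one without ureter 3. As deposited Wt1 did not pass (0.0538).

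**Figure D4:**
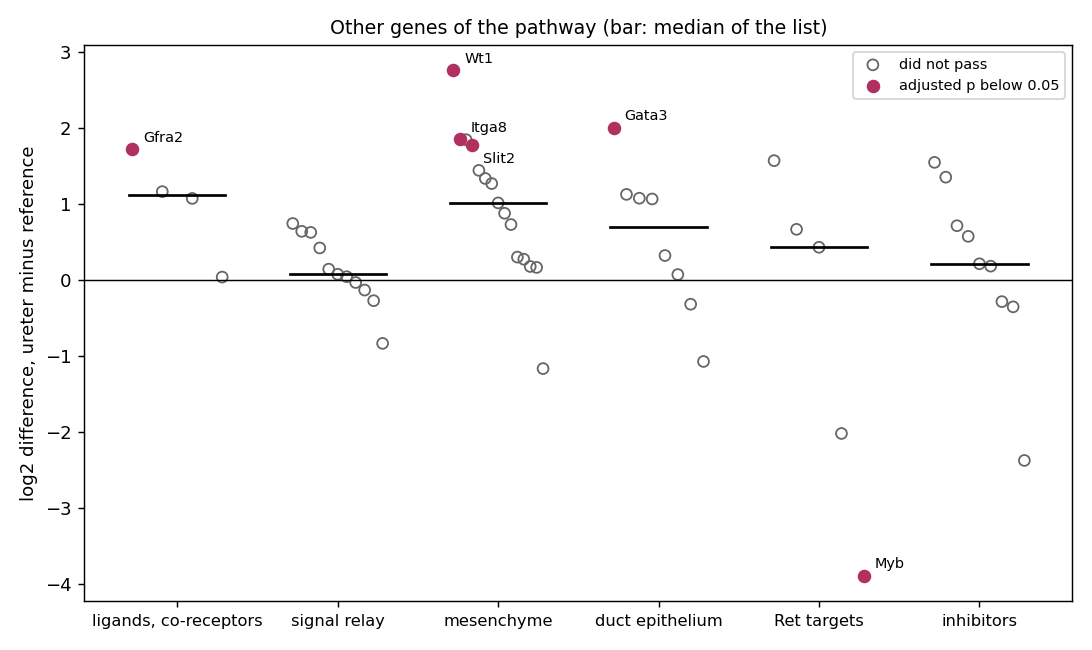
Log2 difference, ureter minus whole-mouse reference (y axis), of the other pathway genes in 6 lists by role (x axis), each gene at its brightest probe set. The list labelled mesenchyme holds the genes that promote or place Gdnf expression and bud outgrowth. Filled points passed limma's adjusted p of 0.05 and open points did not. Bars are list medians, from 0.08 for signal relay to 1.12 for ligands and co-receptors.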

How the data were processed

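The authors deposited 1 intensity on a linear scale for each probe set and array; GCOS, Affymetrix's own program, is named in the submitters' processing notes, and its settings are not given in the sources used. The deposited arrays share a mean of 1500 after trimming 2% at each end, while their medians range from 154 to 332. Intensities plus 12.23 (the 10th percentile of all values) were put on the log2 scale and quantile normalized. Of 45101 probe sets, 64 controls and then the dimmest 40% by mean of the group means were left out, leaving 27022. The ureter and reference groups were then tested with limma 3.58.1 in R 4.3.3 (lmFit, eBayes with an intensity trend; two-sided), and p-values were adjusted by Benjamini-Hochberg across the 27022. Only the ureters supply residual degrees of freedom (2), and the lone reference is assumed to vary as they do. The limma script was tested on simulated data with known changes. The number of arrays limits the precision.

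Gene names came from the platform's annotation (34945 with 1 symbol, 932 with several, 9160 with none). A fold on the offset scale understates dim probe sets, and "at least" marks a fold against a group at background. The members and lists were chosen with earlier results of these data known. All member probe sets were named. Of each pathway list, up to 4 genes with the largest change past the threshold and 2 with the smallest change were named. Of each marker list, up to 3 past the threshold and the 2 brightest were named. Some further genes were named because they went the other way or marked the range of a list. The alternatives were other scalings, offsets, filters, no intensity trend and each ureter left out. In addition, 8 forms of the quantile step were run after the data were seen; the one used has log2 values with control probe sets kept in the normalization.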

Additional observations from a re-analysis of the deposited data

How the results depend on the processing

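No paired analysis was possible because the reference has 1 sample and the ureter numbers are names only. The count of member probe sets past the threshold was 0 under every alternative except without ureter 1, when it was 1 (0 to 1 over the omissions of 1 ureter). That one is Gdnf, which was tested there only because the low ureter was left out and whose reference is at background, so it supports nothing. Centred on the median, arrays moved the median of all probe sets tested from 0.11 to 0.60, and Gfra1 (0.48) and Ret (0.27) turned positive, both under that shift. With 1 ureter left out, Ret ran from -0.67 to 0.34, turning positive without ureter 1, as Lhx1 did (0.88). Lhx1 could not be tested without ureter 2 or 3 or with 60% of probe sets left out. Emx2, Etv5, Spry1 and Wnt11 kept their sign at the brightest probe set in every alternative run.

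Over all probe sets, 747 higher and 961 lower calls (43.7% higher) became 444 and 882 as deposited (33.5% higher), 422 higher with no filter and 272 and 648 without an intensity trend (29.6% higher). Omitting 1 ureter gave 49 to 948 higher and 268 to 1234 lower calls, the fewest without ureter 3 (15.5% higher). Among pathway lists, the calls among genes that promote or place Gdnf expression fell from 3 to 1 without a trend. They ran from 0 to 3 over the omissions. The ligand and co-receptor call ended with an offset of 1 (0), with no filter (0) and without a trend (0), and the duct call without a trend (0); each of these lists and the tip targets ran from 0 to 1 over the omissions, with 0 without ureter 3. The list medians that moved most with median-centred arrays were those of signal relay (0.82), tip targets (1.27) and inhibitors (1.03). The median of genes that promote or place Gdnf expression (1.57) moved there too. The shift of all probe sets is part of the change with median-centred arrays. Those of ligands and co-receptors (0.44) and duct genes (0.05) moved as deposited, and that of duct genes (1.07) with 60% left out. The cause of these changes was not tested. The 8 forms of the quantile step gave 725 to 753 higher and 942 to 968 lower calls, 0 calls among 11 member probe sets and all 6 pathway calls in each. Depth here is signal over background: Gdnf, Etv4 and the dimmest Gfra1 and Lhx1 probe sets were too dim for a test in the fit of all arrays.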
